A study of Mus musculus with 6 samples.

Results

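The myogenic regulatory factors and their partners are the transcription factors that make a cell a muscle cell and switch on its contractile genes. They were chosen here by name: the 4 genes of the myogenic regulatory factor (MRF) family (*Myod1*, *Myf5*, *Myf6* and *Myog*), 3 genes of the MEF2 family (*Mef2a*, *Mef2c* and *Mef2d*), the homeobox gene *Six4* and its coactivator *Eya1*, 9 of the 56262 genes in the count table. Leg muscle of mouse fetuses was profiled by RNA-seq at embryonic day 18.5 (E18.5d), when secondary muscle fibers form, in 3 WT samples and 3 samples in which the long noncoding RNA gene *SYISL* was knocked out (KO). The study examined *SYISL* as a regulator of muscle fiber formation, and the comparison addressed how these regulators differed in RNA level between the genotypes.

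The WT group held wild-type fetuses and the KO group fetuses lacking *SYISL*, with no treatment in the labels of either group, and the KO line came from earlier work of the same laboratory. WT and KO fetuses came from separate matings within each genotype, so the genotype of the fetus, the genotype of its mother and the litter cannot be told apart. No source used here says whether the 3 samples of a group were separate fetuses, litters or pools, and the p-values therefore measure the spread between these samples, which may be technical. No gene symbol matched *SYISL*, and the deletion was not checked from the counts.

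Background on these genes is well established. MRF proteins are basic helix-loop-helix (bHLH) factors that pair with E proteins and bind the E-box, a short DNA motif in muscle enhancers. *Myf5* and *Myod1* commit progenitors to the muscle lineage, *Myog* (myogenin) drives their terminal differentiation into fibers, and *Myf6* (MRF4) acts both early in the embryo and later in formed fibers. MEF2 proteins bind A/T-rich motifs and work with MRF proteins on contractile genes, while *Six4* and its relatives encode homeobox proteins that bind the MEF3 motif together with EYA coactivators and act upstream of and beside the MRF genes.

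The *Myog* promoter is shown because the binding motifs of all 3 kinds of factor lie close together in it. Of the 9 genes, 6 were found in RefSeq promoter windows of GRCm38.p6, which run from 250 bases before to 50 bases after a gene's start, and *Myod1*, *Myf6* and *Eya1* were not matched. The windows were searched on both strands for the E-box CANNTG, the MEF2-type motif CTANNNNTA and the MEF3 motif TCAGGTT. These 6 genes had 9 windows, and that of *Myog* was the only single window to hold all 3 motifs. *Mef2c*, which had more windows than *Myog*, held them all only across separate windows. Of all 32851 windows, 72.3% held the E-box, 21.0% the MEF2-type motif, 4.07% the MEF3 motif and 0.746% all of them. The stretch below ends at the base before the annotated start of *Myog* in GENCODE and lies on the plus strand of mm10 at chr1:134289754-134289988. Capitals mark, in order from the 5′ end, the E-box CACATG, with 117 bases between its last base and the gene, the MEF3 motif, with 62 bases between, and the MEF2-type motif CTATATTTA, with 40 bases between. The window of *Myog* held another E-box, CAGTTG, past the end of this stretch. A match is a description of letters, and no binding was measured.
Myog promoter: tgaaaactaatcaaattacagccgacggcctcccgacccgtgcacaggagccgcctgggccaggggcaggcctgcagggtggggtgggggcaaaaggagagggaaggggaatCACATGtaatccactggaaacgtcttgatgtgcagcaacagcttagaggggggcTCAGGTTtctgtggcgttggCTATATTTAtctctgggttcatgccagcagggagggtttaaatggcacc

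The 6 libraries held 82054811 to 102233181 counts, and 22071 genes had enough counts to be tested. All 9 regulators passed the filter on low counts, with 728 to 48411 counts per library. Levels are given as CPM, counts scaled to a common library size, as mean ± SD over 3 samples, and a gene passed the test at an adjusted p under 0.05 in edgeR's quasi-likelihood test. The libraries differed in makeup as well as in genotype. Epidermal marker transcripts (8 genes) summed to between 16100 and 23951 CPM in WT and to between 904 and 1016 CPM in KO, and transcripts of a list of 10 muscle fiber genes summed to between 14523 and 16475 CPM in WT and to between 28991 and 33711 CPM in KO. Counts from Y-linked genes made up 0.00251% to 0.0205% of a WT library and 0.00282% to 0.00871% of a KO library, and the sex of the samples is not given in the sources used here. In bulk tissue, fewer cells of a type and less RNA per cell cannot be told apart, and the part of these differences in the results below was not tested.

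Of the 9 regulators, 6 differed between the genotypes: *Myf6*, *Eya1*, *Mef2c* and *Mef2d* were higher in KO, and *Myod1* and *Myog* were lower. *Myf5*, *Mef2a* and *Six4* did not pass the test. Across all genes tested, 45.0% passed the same test, 21.9% as higher and 23.1% as lower in KO, against 66.7% of the 9 regulators. The same 6 genes were those whose KO samples lay wholly outside the range of the WT samples, as did 55.9% of all genes tested. With a fold change over 1.5 in addition, 1 regulator remained, *Myf6*, or 11.1% of them against 16.7% of all genes tested. Of all genes tested, 8.31% were higher and 8.39% lower in KO at these thresholds. A figure legend of the study gives the same thresholds for its DEGs, while its methods name a p-value without calling it adjusted. The study tested with DESeq2 and reported fewer DEGs, and these shares are not its own. At these thresholds, DESeq2 gave 1653 genes higher and 1764 lower in KO here. Why the study's counts were smaller was not tested. The median log2 fold change of the 9 was 0.055, that of all genes tested was −0.0041, and the 9 ranged from −0.22 to 0.82. With 9 genes these shares describe the regulators and do not set them apart from other genes, and most of their differences were small and went in both directions.

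**Figure D1:**
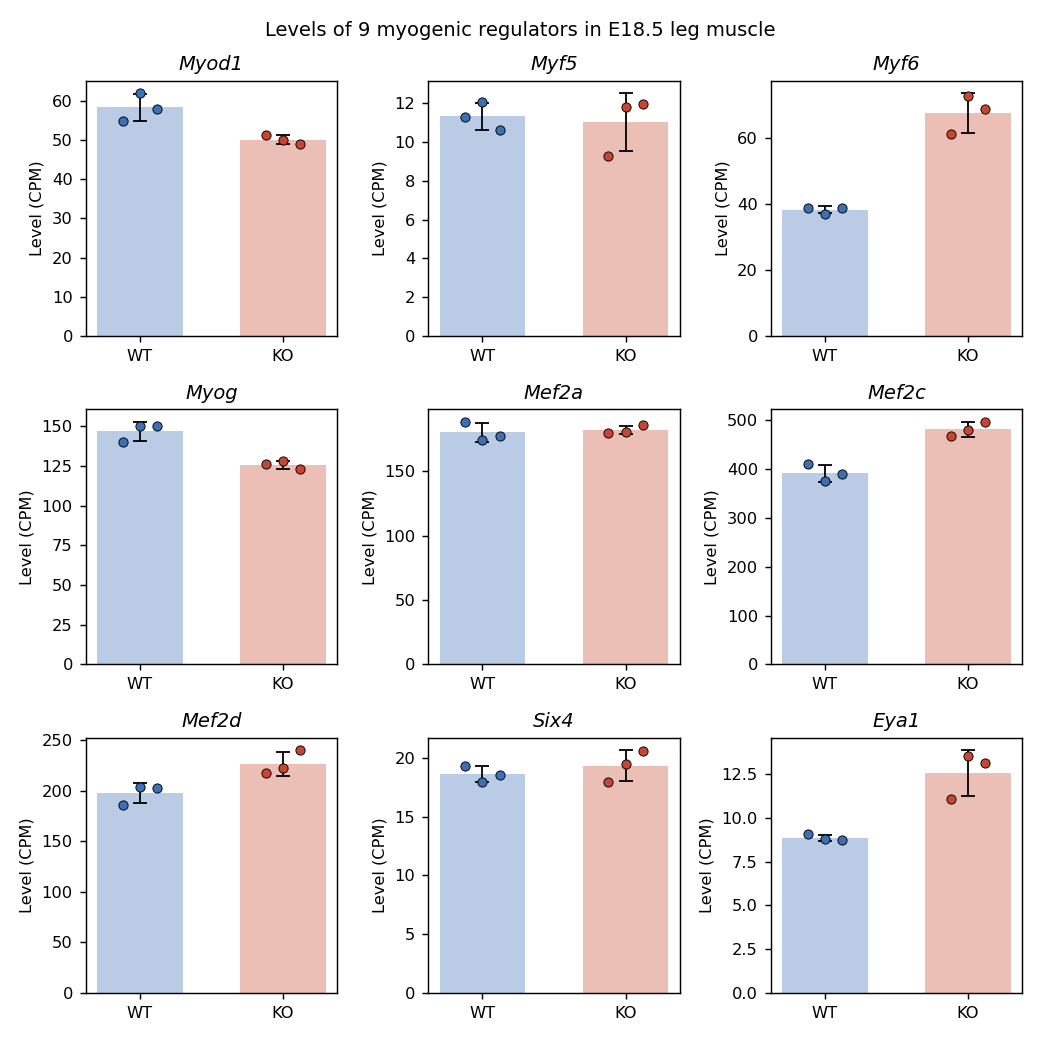
Level of each of the 9 regulators in CPM (vertical axes, each from 0) in the 3 WT samples (blue) and the 3 KO samples (red), with bars at the mean and error bars of 1 SD. The WT and KO points do not overlap for *Myod1*, *Myf6*, *Myog*, *Mef2c*, *Mef2d* and *Eya1*, and they overlap for *Myf5*, *Mef2a* and *Six4*.

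Among the MRF genes, the difference was greatest for *Myf6*. *Myf6* (ENSMUSG00000035923.4, chr10:107492853-107494737, minus strand, mm10) was at 38.6, 37.0 and 38.9 CPM in WT samples 1, 2 and 3 and at 61.0, 72.7 and 68.8 CPM in KO samples 1, 2 and 3. The WT samples were nearly alike, and even the lowest KO sample lay far above them. The mean level rose from 38.2 ± 1.003 to 67.5 ± 5.97 CPM, a 1.77-fold difference (log2 fold change 0.82, SE 0.062, 95% interval 0.68 to 0.96, edgeR adjusted p = 5.58e-06). The interval lay above the log2 value of a 1.5-fold change, 0.58.

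*Myog* and *Myod1* were lower in KO, by nearly the same proportion. *Myog* (ENSMUSG00000026459.5, chr1:134289989-134292548, plus strand) was at 139.9, 150.4 and 150.2 CPM in WT samples 1 to 3 and at 126.2, 128.1 and 123.1 CPM in KO samples 1 to 3. Every KO sample lay below every WT sample, with KO samples closer to each other than WT samples. The WT mean was 147 ± 5.99 CPM and the KO mean 126 ± 2.50 CPM, 1.17-fold higher in WT (log2 fold change −0.22, SE 0.042, interval −0.32 to −0.13, edgeR adjusted p = 0.00212).

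*Myod1* (ENSMUSG00000009471.4, chr7:46376474-46379099, plus strand) was at 55.0, 62.0 and 58.0 CPM in WT samples 1 to 3. In KO samples 1 to 3 it was at 51.3, 49.97 and 49.1 CPM. The groups did not overlap, and the lowest WT sample was close to the highest KO sample. The WT mean was 58.3 ± 3.50 CPM and the KO mean 50.1 ± 1.12 CPM, 1.16-fold higher in WT (log2 fold change −0.22, SE 0.048, interval −0.33 to −0.11, edgeR adjusted p = 0.00494).

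*Myf5* (ENSMUSG00000000435.1, chr10:107482908-107486134, minus strand) lies beside *Myf6*, with 6718 bases between the pair of genes. It was at 11.3, 12.1 and 10.6 CPM in WT samples 1 to 3 and at 9.29, 11.8 and 11.96 CPM in KO samples 1 to 3. KO sample 1 was the lowest of the 6, and the other KO samples lay among the WT samples. The log2 fold change was −0.038 (SE 0.10, interval −0.26 to 0.19, edgeR adjusted p = 0.791), so the interval covered modest differences in either direction. The interval of *Myf5* and that of its neighbor *Myf6* did not meet.

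Among the MEF2 genes, *Mef2c* had the greatest difference. *Mef2c* (ENSMUSG00000005583.16, chr13:83504034-83667080, plus strand), needed for skeletal and cardiac muscle and also expressed in endothelium and myeloid cells, was at 410.1, 375.6 and 390.1 CPM in WT samples 1 to 3 and at 467.6, 480.5 and 497.6 CPM in KO samples 1 to 3. All KO samples lay above all WT samples. The mean rose from 392 ± 17.3 to 482 ± 15.1 CPM, 1.23-fold (log2 fold change 0.30, SE 0.051, interval 0.18 to 0.41, edgeR adjusted p = 0.00120). Markers of other cells in which *Mef2c* is active moved with genotype as well. Of 8 endothelial genes, 6 were higher in KO (3 with scaling by library size alone) and none was lower, with a summed level of 727 to 757 CPM in WT and 845 to 888 CPM in KO. Of 8 macrophage genes, 7 were higher and none was lower, with a sum of 266 to 284 CPM in WT and 415 to 454 CPM in KO. The part of these cells in the *Mef2c* difference was not tested.

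*Mef2d* (ENSMUSG00000001419.17, chr3:88142372-88172086, plus strand), whose splice forms change as muscle matures, was at 186.1, 204.0 and 202.5 CPM in WT samples 1 to 3 and at 218.0, 222.6 and 240.4 CPM in KO samples 1 to 3. The groups did not overlap, with WT sample 1 the lowest and KO sample 3 the highest. The mean rose from 198 ± 9.93 to 227 ± 11.9 CPM, 1.15-fold (log2 fold change 0.20, SE 0.054, interval 0.079 to 0.32, edgeR adjusted p = 0.0136). The difference no longer passed the edgeR test without KO sample 3 (log2 fold change 0.17, adjusted p = 0.0542) or with scaling by library size alone (0.13, adjusted p = 0.0569).

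*Mef2a* (ENSMUSG00000030557.17, chr7:67231163-67372858, minus strand) was at 188.4, 174.3 and 177.5 CPM in WT samples 1 to 3 and at 179.8, 180.4 and 185.4 CPM in KO samples 1 to 3. All KO samples fell within the WT range. The log2 fold change was 0.015 (SE 0.043, interval −0.082 to 0.11, edgeR adjusted p = 0.813), a narrow interval around no difference. Exons of *Lysmd4*, on the opposite strand, overlap those of *Mef2a*, and as the strand setting of the counting is not given in the sources used here, reads in the overlap are uncertain. *Lysmd4* held 1540 to 1968 counts per library, 10.2% of the count of *Mef2a*, and its own log2 fold change was 0.0017 (SE 0.055, edgeR adjusted p = 0.982). The other genes overlapping a regulator with at least 10 counts were minor: *Gm44667* within *Mef2a* held 8 to 26 counts, and *1700113A16Rik*, antisense to *Mef2d*, held 102 to 120 counts, 0.540% of the count of *Mef2d*.

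*Eya1* and *Six4* were the least abundant of the 9 per length, and of these *Eya1* passed the test. *Eya1* (ENSMUSG00000025932.14, chr1:14168954-14310235, minus strand), a phosphatase and coactivator that homeobox partners such as *Six4* carry to DNA, was at 9.05, 8.81 and 8.73 CPM in WT samples 1 to 3 and at 11.1, 13.5 and 13.1 CPM in KO samples 1 to 3. The WT samples were tightly grouped, and all KO samples lay above them, with KO sample 1 the nearest. The mean rose from 8.86 ± 0.170 to 12.6 ± 1.30 CPM, 1.42-fold (log2 fold change 0.50, SE 0.081, interval 0.32 to 0.69, edgeR adjusted p = 0.000772), and without KO sample 1 the log2 fold change was 0.59, past the 1.5-fold threshold.

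*Six4* (ENSMUSG00000034460.9, chr12:73099609-73113456, minus strand), a homeobox factor that acts on MRF genes, was at 19.3, 17.9 and 18.5 CPM in WT samples 1 to 3 and at 17.9, 19.5 and 20.6 CPM in KO samples 1 to 3. The groups overlapped. The log2 fold change was 0.055 (SE 0.064, interval −0.088 to 0.20, edgeR adjusted p = 0.518).

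**Figure D2:**
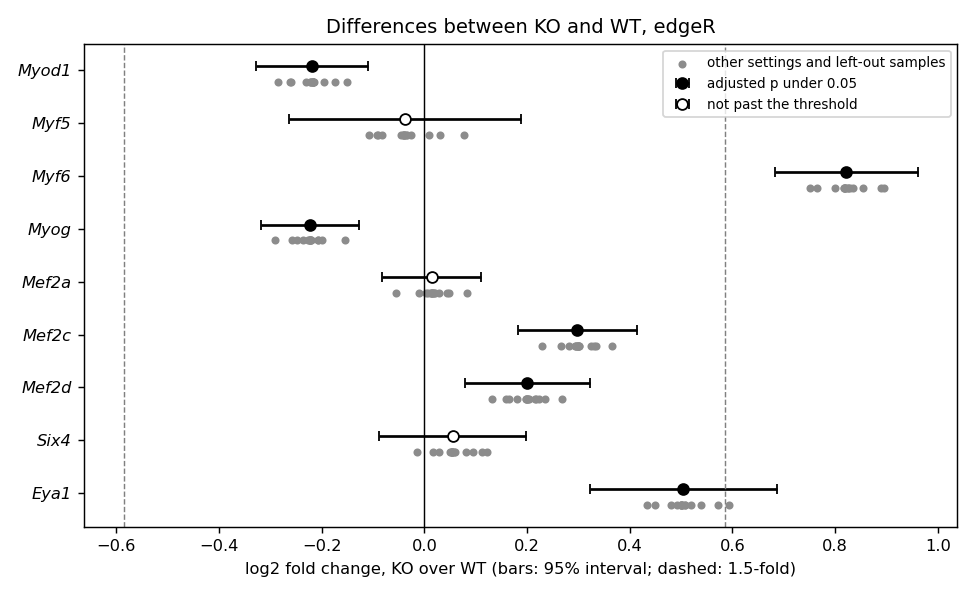
Log2 fold change of KO over WT (horizontal axis) for each regulator, with 95% intervals from edgeR (large points, filled where the adjusted p was under 0.05) and the values under 15 other settings or with a sample left out (small gray points). *Myf6*, at 0.82, lies beyond the dashed 1.5-fold line over its whole interval, and the gray points of *Myf5*, *Mef2a* and *Six4* fall on both sides of 0.

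Levels were compared between genes only per length, as TPM, in which counts are divided by the summed exon length of the gene and scaled to a common total. That length takes in every annotated exon, and the order between genes depends on it. In WT, *Myog* was highest at 309 ± 13.4 TPM, followed by *Mef2d* at 104 ± 5.27, *Myod1* at 98.5 ± 4.88 and *Myf6* at 95.03 ± 4.22 TPM. *Mef2d* and *Myod1* overlapped in their TPM values, as did *Myod1* and *Myf6*, so the order within this middle group was not resolved. *Mef2c* stood at 78.4 ± 4.36, *Mef2a* at 38.6 ± 1.92 and *Myf5* at 17.1 ± 0.760 TPM, with *Six4* at 5.39 ± 0.267 and *Eya1* at 3.57 ± 0.0880 TPM last.

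In KO, the order was *Myog*, *Myf6*, *Mef2d*, *Mef2c*, *Myod1*, *Mef2a*, *Myf5*, *Six4* and *Eya1*, with no overlap between neighbors. *Myf6*, part of the unresolved middle group in WT, lay above the rest of that group in KO. It was at 163 ± 8.51 TPM, behind only *Myog* at 257 ± 11.9 TPM. *Myod1* moved down behind *Mef2c*, with 82.2 ± 5.04 TPM against 93.5 ± 2.25 TPM.

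Shares within a family do not depend on the scaling between libraries, and *Myf6* took a larger part of the MRF transcripts in KO than in WT. The shares of a family have a fixed sum, so a rise of any gene by itself lowers the shares of the others. Of the summed per-length counts of the 4 MRF genes, *Myf6* made up 19.2%, 17.3% and 18.4% in WT samples 1 to 3 and 29.3%, 32.7% and 32.2% in KO samples 1 to 3. *Myog* made up 58.8%, 59.5% and 60.0% in WT samples 1 to 3 and 51.3%, 48.7% and 48.8% in KO samples 1 to 3. In neither gene did the groups overlap, and *Myog* remained the largest share in all samples. The mean share of *Myf6* was 18.3% ± 0.937 in WT and 31.4% ± 1.86 in KO, that of *Myog* 59.4% ± 0.590 and 49.6% ± 1.45, and that of *Myod1* 19.0% ± 0.645 and 15.9% ± 0.762. In each of these genes the exact two-sided permutation test gave p = 0.1, the smallest p that 3 against 3 samples allow, so the design could not reach 0.05 (adjusted p = 0.14 over 7 shares). *Myf5* made up 3.29% ± 0.214 in WT and 3.11% ± 0.360 in KO (exact permutation p = 0.5).

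In the MEF2 family, the share of *Mef2a* was 17.5% ± 0.743 in WT and 15.3% ± 0.335 in KO, and that of *Mef2c* was 35.5% ± 1.57 in WT and 37.9% ± 0.358 in KO. Neither gene's groups overlapped (exact permutation p = 0.1, adjusted p = 0.14). With a fixed sum, the share of *Mef2a* can fall without a fall in its level, which did not pass the edgeR test. *Mef2d*, the largest share per length, was at 47.0% ± 2.30 in WT and 46.8% ± 0.642 in KO, within the spread of the WT samples (exact permutation p = 0.9). This order depended on gene length. In plain counts *Mef2c* was the largest share, at 50.9% in WT and 54.1% in KO, and *Mef2d* was at 25.7% in WT and 25.5% in KO.

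**Figure D3:**
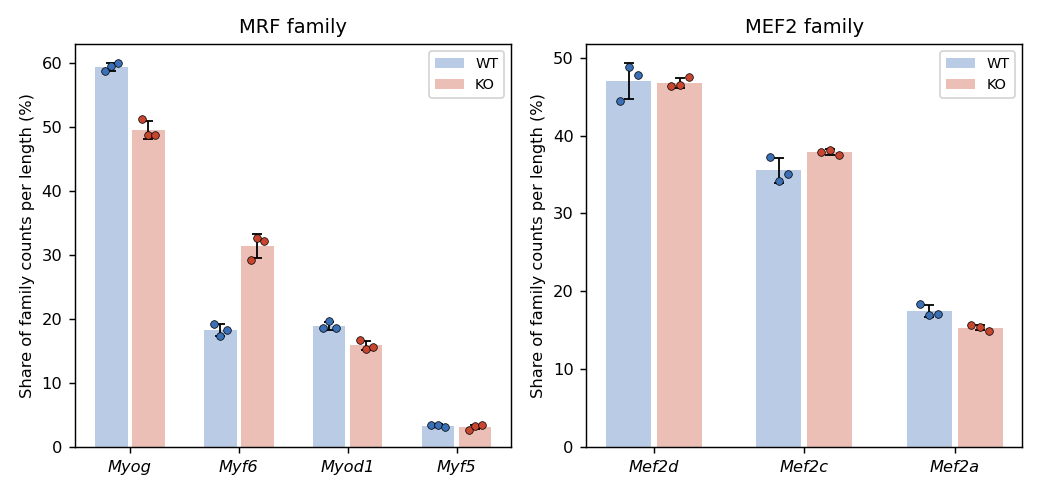
Share of each gene in the summed per-length counts of its family (vertical axes, percent, from 0) in WT (blue) and KO (red), with a point for each sample, bars at the mean and error bars of 1 SD. The 3 KO points of *Myf6* sit at 29.3% to 32.7%, above the WT points at 17.3% to 19.2%, and those of *Myog* sit below WT.

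Of 9 ratios between regulators within a sample, 5 had groups that did not overlap, and some of these share a gene. Among all single genes tested, 55.9% did not overlap. The like share for ratios of other genes was not computed, so the count does not set the regulators apart. The per-length ratio of *Myf6* to *Myog* was 0.308 in WT and 0.633 in KO, a 2.06-fold difference, and that of *Myf6* to *Myf5* was 5.56 in WT and 10.1 in KO. By contrast, the ratio of *Myog* to *Myod1*, the differentiation factor against the commitment factor, was 3.14 in WT and 3.13 in KO, a log2 difference of −0.0053 with overlapping groups (exact permutation p = 0.9). The ratio of *Mef2c* to *Mef2a* was 2.03 in WT and 2.47 in KO, and that of *Six4* to *Eya1* was 1.51 in WT and 1.11 in KO. The fifth ratio without overlap was *Mef2d* to *Mef2a*, with a log2 difference of 0.19. Each of the 5 had an exact permutation p = 0.1, the smallest possible, and an adjusted p = 0.18 over the 9 ratios.

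Since KO libraries held more fiber transcripts, each regulator was also set against the summed CPM of the 10 muscle fiber genes in the same library. Of these 10 genes (*Actn2*, *Ttn*, *Neb*, *Dmd*, *Cacna1s*, *Myh3*, *Myh8*, *Tnnt3*, *Mybpc1* and *Myom1*), 9 were higher in KO and none was lower, with a median log2 fold change of 0.90. *Myh8*, the perinatal myosin heavy chain, rose from 4710 ± 501 to 14165 ± 1457 CPM (log2 fold change 1.59), *Tnnt3*, fast troponin T, from 1368 ± 126 to 3548 ± 505 CPM (1.38), and *Mybpc1*, a myosin-binding protein, from 1347 ± 96.7 to 2820 ± 273 CPM (1.07). *Myh3*, the embryonic myosin heavy chain, did not pass the edgeR test (log2 fold change −0.040, adjusted p = 0.651).

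The log2 of the summed fiber level was 13.93 in WT and 14.97 in KO, a difference of 1.03. Relative to that sum, the mean of each of the 9 regulators was lower in KO. The log2 ratio of KO minus that of WT was −0.22 for *Myf6*, −0.53 for *Eya1*, −0.74 for *Mef2c* and −0.83 for *Mef2d*. It was −0.98 for *Six4*, −1.02 for *Mef2a* and −1.08 for *Myf5*, and it was lowest for *Myod1* at −1.25 and *Myog* at −1.26. Against this sum, the groups did not overlap in any of the 9 (exact permutation p = 0.1, the smallest possible, adjusted p = 0.1). Abundant genes weigh most in the sum, and *Myh8* rose most in CPM, from a mean of 4710 in WT to 14165 in KO. Against the mean log2 CPM of the same genes, the *Myf6* difference was −0.086, and its WT and KO values overlapped. *Myf6* came nearest to the difference of the fiber transcripts, and a regulator with no difference in CPM had by construction a lower ratio.

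**Figure D4:**
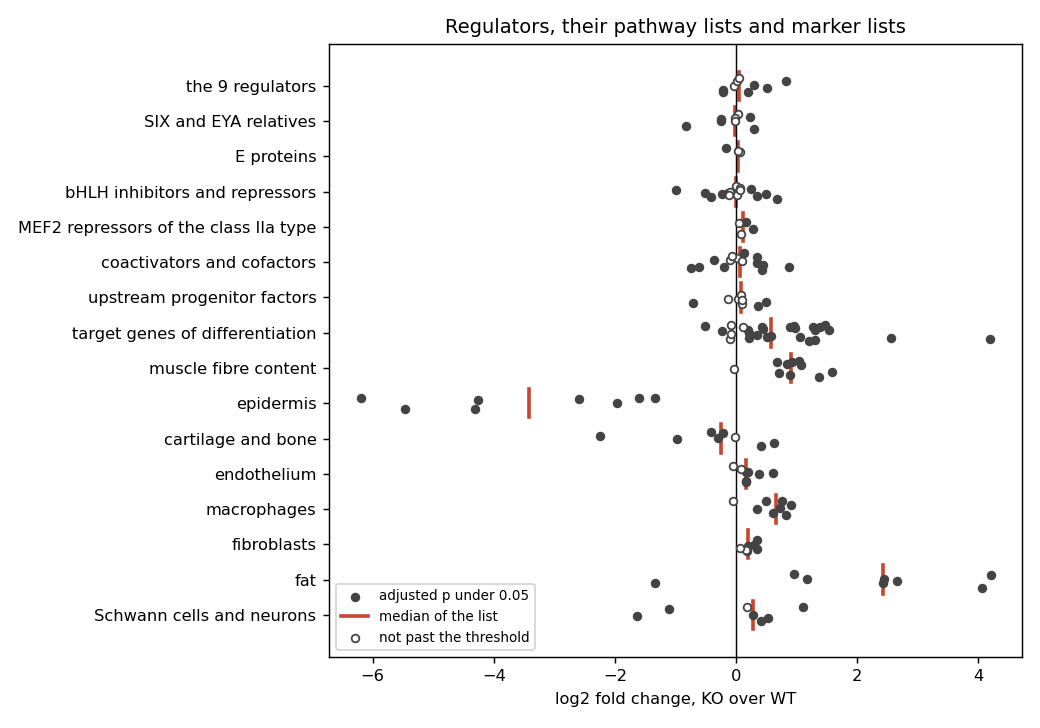
Log2 fold change of KO over WT (horizontal axis) for the genes of each list, one point a gene (filled where the edgeR adjusted p was under 0.05), with a red line at the median of the list and a black line at the median of all genes tested. The medians of the 9 regulators and of their cofactor lists lie close to the black line, though single genes lie away from it. The medians of the differentiation targets and fiber genes lie to the right of it, and that of the epidermal genes far to the left.

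Genes on which MRF and MEF2 proteins are known to act were mostly higher in KO. Of 27 such differentiation targets, 21 were higher in KO, 2 were lower and 4 did not pass the edgeR test, with a median log2 fold change of 0.58. At the 1.5-fold threshold, 13 passed as higher. Across all genes tested, 21.9% were higher in KO, and 8.31% with the 1.5-fold threshold. The list was chosen with earlier results of these data known. Whether its differences go beyond those of the fiber transcripts was not tested. *Pvalb*, the calcium buffer of fast fibers, rose from 0.946 ± 0.264 to 17.5 ± 3.62 CPM (log2 fold change 4.19, SE 0.210), *Xirp2*, an actin-binding protein and MEF2 target, from 16.9 ± 1.86 to 99.5 ± 11.4 CPM (2.55, SE 0.099), and *Atp2a1*, the calcium pump of fast fibers, from 612 ± 44.0 to 1780 ± 207 CPM (1.54, SE 0.093). The lower genes and those that did not pass are named after their values were seen. *Mymx* (myomixer), which fuses myoblasts, averaged 16.4 ± 1.17 CPM in the WT samples against 11.5 ± 1.61 CPM in the KO samples (log2 fold change −0.51, edgeR adjusted p = 0.00264). The other fusion gene of the list, *Mymk*, also named after its values were seen, went the opposite way. It rose from 79.4 ± 0.294 to 92.5 ± 4.96 CPM (0.22, edgeR adjusted p = 0.00288). *Cdkn1c*, a cell cycle inhibitor of differentiating myoblasts, fell from 1649 ± 71.0 to 1397 ± 84.5 CPM (−0.24, edgeR adjusted p = 0.0143). *Chrnd* and *Chrng*, subunits of the acetylcholine receptor, *Cdh15*, a cadherin of myoblasts, and *Cdkn1a* did not pass. The count of lower targets moved with single libraries, from 2 to 4 without WT sample 1 and to 1 without KO sample 2 or KO sample 3.

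The dimer partners and inhibitors of MRF proteins did not share a direction. Among the E proteins, *Tcf3* was lower in KO, with 93.8 ± 5.02 CPM in WT against 83.2 ± 1.92 CPM in KO (log2 fold change −0.17, edgeR adjusted p = 0.0125), a call lost without KO sample 3 and with upper-quartile scaling, and *Tcf4* and *Tcf12* did not pass. Of 15 bHLH inhibitors and repressors, 4 were higher, 5 lower and 6 did not pass, with a median log2 fold change of 0.0025, and the count of lower genes was 3 without WT sample 2, WT sample 3 or KO sample 2. *Id4*, which sequesters E proteins, fell from 28.2 ± 2.90 to 14.2 ± 0.288 CPM (log2 fold change −0.99), *Mdfi*, which binds MRF proteins and holds them inactive, fell from 27.1 ± 1.96 to 19.1 ± 1.36 CPM (−0.51), and *Bhlhe41*, a repressor, rose from 3.98 ± 0.187 to 6.37 ± 0.351 CPM (0.68).

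Among 4 class IIa histone deacetylases, which bind MEF2 proteins and repress their targets, *Hdac9* rose from 23.6 ± 0.388 to 28.7 ± 0.602 CPM (log2 fold change 0.29), *Hdac4* rose from 29.6 ± 0.833 to 33.2 ± 0.276 CPM (0.16, a call lost with scaling by library size alone), and *Hdac5* and *Hdac7* did not pass. Of 14 coactivators and cofactors, 6 were higher, 4 lower and 4 did not pass, with a median log2 fold change of 0.060. *Mamstr*, a MEF2 coactivator of muscle, rose from 88.0 ± 2.53 to 120 ± 6.28 CPM (0.45). *Vgll3*, a cofactor of TEAD proteins, fell from 80.1 ± 7.11 to 48.0 ± 0.641 CPM (−0.74), and *Tead4*, itself a TEAD factor, fell from 39.2 ± 2.69 to 25.7 ± 0.784 CPM (−0.61). The remaining gene of the MEF2 family, *Mef2b*, which is on this list and is named after its values were seen, was scarce in both groups, with 0.154 ± 0.0266 CPM in WT against 0.279 ± 0.0243 CPM in KO (log2 fold change 0.87, SE 0.239, edgeR adjusted p = 0.0153).

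Of 8 relatives of *Six4* and *Eya1*, 2 were higher, 3 lower and 3 did not pass, with a median log2 fold change of −0.018. *Eya4* rose from 47.7 ± 2.44 to 58.3 ± 3.20 CPM (0.29) and *Eya3* fell from 60.9 ± 2.08 to 51.3 ± 1.91 CPM (−0.25), so the *EYA* genes that passed did not move one way. *Six2* was at 5.03 ± 0.556 and 4.24 ± 0.0377 CPM (−0.25, edgeR adjusted p = 0.0474), a call lost under 12 of 15 other settings.

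Upstream of the MRF genes, 8 progenitor factors gave 2 higher, 1 lower and 5 that did not pass. *Lbx1*, a factor of migrating limb precursors, rose from 10.7 ± 0.543 to 13.7 ± 1.18 CPM (0.36). *Pax3*, which marks early progenitors, fell from 1.41 ± 0.317 to 0.854 ± 0.139 CPM (−0.72, edgeR adjusted p = 0.0120), a call lost without KO sample 3, and without WT sample 1 the list had 2 lower genes. *Pax7*, which marks fetal progenitors and satellite cells and is named after its values were seen, averaged 23.9 ± 1.17 CPM in the WT samples against 21.8 ± 0.853 CPM in the KO samples (−0.13, adjusted p = 0.0763).

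The genes whose profile over the 6 samples was most like that of *Myf6* were *Csrp3*, a LIM protein of the muscle Z-disc, *Trim63*, a muscle ubiquitin ligase, and *Macrod1*. Likeness was the root mean square difference of centered log2 CPM, computed for 15872 genes, and it was 0.017 for *Csrp3*, 0.026 for *Trim63* and 0.027 for *Macrod1*. *Csrp3* averaged 97.8 CPM in WT against 171 CPM in KO. For *Myog*, the regulator with the greatest fall, the nearest were *Mapk8ip1*, a kinase scaffold, at 0.013, *Actr1a*, a dynactin subunit, at 0.017, and *Eif3k*, a subunit of a translation initiation factor, at 0.019. *Mapk8ip1* averaged 45.6 CPM in WT against 39.6 CPM in KO. These are descriptions over 6 samples in 2 groups, in which genes of like fold change have like profiles.

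Markers of the other cell types that leg tissue can hold moved with genotype too, and their part in the results on the regulators was not tested. All 8 epidermal genes were lower in KO, with a median log2 fold change of −3.42 and with *Krt10* (−6.20), *Krt1* (−5.47) and *Dsg1a* (−4.31) in front. Of 8 cartilage and bone genes, 5 were lower and 2 higher (*Col2a1* −0.98, *Sox9* −0.42, *Bglap* 0.63), and their sum ranged over 1256 to 1343 CPM in WT against 1136 to 1195 CPM in KO. Fat genes were higher in 7 of 8 cases and lower in 1, with *Cfd* at 4.21, *Cidec* at 4.05 and *Adipoq* at 2.66 on the log2 scale, and their sum ranged over 168 to 186 CPM in WT against 377 to 439 CPM in KO. Among macrophage genes *Mrc1* (0.91), *C1qc* (0.82) and *Adgre1* (0.76) rose most, and among endothelial genes *Vwf* (0.61), *Pecam1* (0.38) and *Kdr* (0.20). Of 7 fibroblast genes tested, 5 were higher and none lower (*Col3a1* 0.35, *Postn* 0.34, *Pdgfra* 0.29), a count that fell to 3 without WT sample 1, WT sample 3, KO sample 2 or KO sample 3. Of 7 genes of Schwann cells and neurons tested, 4 were higher and 2 lower (*Tubb3* −1.63, *Nefl* −1.11), with sums of 81.7 to 86.6 CPM in WT and 107 to 126 CPM in KO.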

How the data were processed

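Total RNA of leg muscle was sequenced as paired-end reads in 3 WT and 3 KO samples. The authors trimmed reads with Trim Galore 0.6.6, aligned them to mm10 with HISAT2 2.2.1 and deposited raw counts per gene from featureCounts 2.0.1. Which annotation and strand option were used, and whether single reads or pairs were tallied, is not given in the sources used here. Of 56262 gene IDs, 55227 were found in GENCODE M21, which gave names, loci and exon lengths.

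Counts were scaled by TMM and tested with edgeR 4.0.16 (quasi-likelihood, Benjamini-Hochberg over 22071 genes, R 4.3.3), with genotype as the only term. Ratios and shares were tested by exact two-sided permutation of samples. On simulated counts for KO against WT over 22071 genes, the test called 18 of 50 genes changed 1.25-fold and 26 of 50 changed 1.5-fold. It called 35 of 50 changed 2-fold, 49 of 50 changed 4-fold and 16 of 21871 unchanged genes. Far fewer genes were changed there than the 9936 that passed in the data, so these rates need not hold for the data. Before TMM scaling, a count of 3 equalled 0.0293 to 0.0366 CPM, and intervals cover these samples only.

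Alternatives were RLE, upper-quartile and no scaling, DESeq2 1.42.0, limma-voom (limma 3.58.1), other count filters, a replicate block, the Y-linked share as a covariate, other fold thresholds and leaving out each sample. Named genes were the 9 regulators, up to 3 genes per list with the largest absolute log2 fold change among those past the test with a mean of at least 1 CPM, the 3 nearest profiles of the regulators with the largest rise and fall, and overlapping genes with at least 10 counts. The members and lists were chosen with earlier results of these data known. *Tcf21* and *Elavl3* had too few counts to be tested. Results on some genes that this rule names are not reported here.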

Additional observations from a re-analysis of the deposited data

How the results depend on the processing

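Over 15 alternatives, *Myf6* (log2 fold change 0.75 to 0.90), *Eya1* (0.43 to 0.59), *Mef2c* (0.23 to 0.37), *Myod1* (−0.29 to −0.15) and *Myog* (−0.29 to −0.16) kept their direction and an adjusted p under 0.05. *Mef2d* (0.13 to 0.27) lost its call with scaling by library size only (0.13) and without KO replicate 3, and leaving out single replicates moved it between 0.16 and 0.23. The sign changed for the genes that did not pass: *Myf5* with upper-quartile factors (0.030) and between −0.092 and 0.077 when single replicates were left out, *Mef2a* with library size only (−0.054) and between −0.0098 and 0.047, and *Six4* with library size only (−0.015). The number of regulators past the 1.5-fold threshold was 1 to 2 when single replicates were left out (*Eya1* joined *Myf6* without KO replicate 1), and 0 with a fold change over 2. Plain counts without gene length gave share differences of 11.5 percentage points for *Myf6*, −8.19 for *Myog* and −2.97 for *Mef2a*. Against the mean log2 CPM of the fiber genes, the log2 ratios differed by −0.086 for *Myf6*, −0.41 for *Eya1*, −0.61 for *Mef2c*, −0.70 for *Mef2d*, −0.85 for *Six4* and −0.89 for *Mef2a*. The WT and KO values of *Myf6* overlapped in this form, unlike those against the sum. The causes were not tested. With library size only, 3 instead of 6 endothelial genes were higher. Over the 42 named list genes, 614 of 630 values kept their call, 16 lost it and none changed sign.

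Samples with the same replicate number did not deviate together (correlations −0.20, −0.13 and 0.047), so the number was not treated as a pairing. A fit with the replicate block changed no call on a regulator: the log2 fold change was 0.82 for *Myf6*, 0.50 for *Eya1*, 0.30 for *Mef2c*, 0.20 for *Mef2d*, −0.22 for *Myod1* and −0.22 for *Myog*, and 8860 genes passed against 9936 without it.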
